A study of Mus musculus with 4 samples.

Results

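The genes described here are 8 transcription factors whose levels differ between the subfields of the hippocampus: Prox1, Zbtb20, Zbtb18, Bcl11b, Meis2, Pou3f1, Etv1 and Trps1. They were chosen as a list of names, with earlier results of these data known, and all 8 were found by Ensembl ID among the 55422 gene IDs of the deposited matrices. Single-nucleus RNA sequencing had been done on hippocampal tissue of adult mice with the 10x Genomics Chromium kit, which marks each RNA molecule with a unique molecular identifier (UMI). The 2 Control libraries came from Kat6a-f/f mice, whose Kat6a gene carries loxP sites, and the 2 Kat6a-cKO libraries from mice with NEX-cre and Kat6a-f/f. All 4 libraries therefore carry the floxed allele, and only Kat6a-cKO carries Cre. NEX-cre is a Cre gene at the Neurod6 locus, which is active in forebrain excitatory neurons and not in glia or most interneurons, so a Kat6a-cKO library also holds nuclei in which no deletion is directed. KAT6A is a histone acetyltransferase, and the title of the series ties its deficiency to RSPO2, Wnt signalling and hippocampal CA3. The labels do not say how many animals a library holds, so p-values measure only the spread between these libraries, which may be technical.

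Transcription factors bind short DNA sequences and set which genes a neuron transcribes. In the hippocampus, Prox1 is the homeobox factor that marks dentate granule cells and is needed for them to keep their identity against a CA3 fate. Zbtb20 and Zbtb18 (also RP58) are zinc finger factors, mostly repressors, and Zbtb20 is needed for the hippocampus to form as such. Bcl11b (CTIP2) is a zinc finger factor of CA1 and dentate granule neurons, and Meis2 is a homeobox factor of the TALE class. Pou3f1 (SCIP) is a POU factor of CA1 and of cells of the oligodendrocyte lineage, Etv1 (ER81) is an ETS factor best known from layer 5 of the cortex, and Trps1 is a GATA-type zinc finger repressor.

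The 5' flanking sequence is shown for Zbtb18, the only one of the 8 genes called in a named class with all 4 libraries at the settings given below, and for Prox1, the marker of the dentate gyrus, which was not called there. Both are the 250 bases before a start site, read 5' to 3' on the gene's strand, from RefSeq on GRCm38.p6. The Zbtb18 window is chr1:177442101-177442350 (+) and the Prox1 window is chr1:190170828-190171077 (-). Capitals mark the E-box-like motif known for ZBTB18 itself, ACATCTGG in the first and its shorter core on the other strand (CATCTG, read as CAGATG) in the second.
Zbtb18: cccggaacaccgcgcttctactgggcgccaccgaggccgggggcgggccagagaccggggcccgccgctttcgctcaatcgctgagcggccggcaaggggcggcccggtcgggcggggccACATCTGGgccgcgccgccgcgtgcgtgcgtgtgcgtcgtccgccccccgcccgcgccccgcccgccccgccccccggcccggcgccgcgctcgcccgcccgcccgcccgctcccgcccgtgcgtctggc
Prox1: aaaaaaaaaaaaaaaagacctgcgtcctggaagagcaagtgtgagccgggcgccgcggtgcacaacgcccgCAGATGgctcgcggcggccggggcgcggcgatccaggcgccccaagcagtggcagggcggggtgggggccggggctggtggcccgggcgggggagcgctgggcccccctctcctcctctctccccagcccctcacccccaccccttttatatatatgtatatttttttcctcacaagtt
This Zbtb18 window was 84.0% G or C, against a median of 52.4% over all windows, and held 47 CpG dinucleotides. Its ACATCTGG begins 130 bases before the start site. On either strand (ACATCTGG or CCAGATGT) that motif was in 290 of 32851 windows, or 0.88%, while the core (CATCTG or CAGATG), which lies inside it, was in 4745, or 14.44%. The Prox1 window was 64.8% G or C with 20 CpG and 1 core motif, 179 bases before the start. Other RefSeq starts of the same genes differ: the other 4 Zbtb18 windows were 37.6% to 42.8% G or C with 0 to 2 CpG, the core and no ACATCTGG or CCAGATGT, and the other Prox1 window was 56.0% with 0 core motifs. A match describes the letters only. RefSeq windows were matched for 6 of the 8 genes, 12 windows in all.

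The 4 libraries held 171323466 to 186897245 counts and 7911 to 8442 barcodes of at least 5000 UMIs, with median UMI counts of 13924 to 14666. After 246 to 298 called doublets per library were left out, 31470 nuclei remained, and 47 to 53 barcodes of each library also occurred in another library. Nuclei were clustered without the 8 factors and without 87 further transcription factors, and 28396 of them fell into 17 classes named from other marker genes. Each class name stands for an X-like identity, as CA3 for CA3-like, and 3074 nuclei (9.8%) stayed unnamed. Summed over their lists, the dentate granule markers stood at 2182 to 2449 CPM in the class they name and 51.0 to 75.04 in CA3, the CA3 markers at 4567 to 4708 in CA3 and 926 to 986 in dentate granule nuclei, and the CA1 markers at 2069 to 2194 in CA1 and 178 to 211 in CA3. Dentate granule nuclei made up 42.6% and 41.2% of the Control libraries, against 36.5% and 35.5% of the Kat6a-cKO ones. Kat6a itself, in counts per gene, stood over all nuclei at 79.4 and 80.6 CPM (UMIs of the gene, scaled to the usual common total) for Control, against 73.9 and 74.1 for Kat6a-cKO. Counts summed over a gene need not show the loss of an exon, and the deleted part is not given in the sources used here, so this is no check of the deletion. The Cre entry of the matrices had 0 UMIs in both Control libraries and 1.27 and 1.24 CPM in both Kat6a-cKO libraries, as labelled. By class, the Kat6a-cKO libraries held 5 and 6 of its UMIs in dentate granule nuclei (0.14 and 0.19 CPM). Immature dentate nuclei held 0, CA1 nuclei 72 and 62 (2.3 and 1.8 CPM) and CA3 nuclei 40 and 57 (2.2 and 2.8 CPM). Kat6a-cKO 2 also held 2 each in Pvalb and oligodendrocyte nuclei. These counts do not show where the deletion took place.

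Prox1, at chr1:190118035-190170714 (-, GRCm38), was a gene of the dentate lineage and of a few other classes. Levels are given in CPM of the class, in the order Control 1 and 2 and then Kat6a-cKO 1 and 2, and are compared only within a gene because no value is scaled for gene length. In immature dentate nuclei, newborn granule neurons, Prox1 stood at 599.5, 544.9, 493.6 and 511.4. In dentate granule nuclei it stood at 243.9, 257.8, 221.8 and 235.4. Every library of the immature class was above every library of the mature class, with a Control mean 2.28 times as high. Nuclei with Vip and Lamp5 interneuron markers came next at 163.3 to 180.0, then oligodendrocytes at 93.6 to 147.1, and each of these steps was again without overlap. CA3, CA1 and mossy cell nuclei lay at 1.46 to 6.46. Prox1 was seen with at least 1 UMI in 85.1% to 89.3% of dentate granule nuclei, at a median depth of 11498 UMIs, and in 6.11% to 9.19% of CA3 nuclei, at a median depth of 24518. After thinning every nucleus to 5000 UMIs the shares were 62.1% to 66.8% and 1.20% to 2.53%. The free RNA profile, from barcodes of 10 to 100 UMIs, held Prox1 at 42.7 to 56.8 CPM, above the level in CA3 nuclei. How much of the CA3 share comes from free RNA was not measured. The 3 genes most like Prox1 over the 17 classes, by Pearson's r of log2 Control CPM among 12183 genes, were the overlapping Prox1os on the other strand (r = 0.96), Npm1 (0.89) and 2810025M15Rik (0.88). Whether the authors' counting used strand is not given in the sources used here, so reads of Prox1 and Prox1os may not be separable.

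Zbtb20, at chr16:42875881-43642602 (+), was high in every hippocampal excitatory class except the subicular one. Immature dentate nuclei held 10401, 9183, 8947 and 8632 CPM. This was above every library of every other class, and the Control mean was 1.94 times that of the next. CA2 held 4579 to 5137, astrocytes 4462 to 4610 and dentate granule nuclei 4271 to 4467, and neighbours among these were not all apart. CA3 followed at 3848 to 4222 and mossy cells at 3047 to 3425. CA1 was lower, at 2002, 2146, 1661 and 1703. Inhibitory nuclei as a whole held 271.2 to 385.9, and subicular nuclei had the lowest Control mean, at 127.0, 66.9, 59.5 and 49.5. In Control 1 alone, deep-layer excitatory nuclei were lower, at 120.8. Every dentate granule nucleus had at least 1 UMI of Zbtb20 in every library, also after thinning. Within CA1, finer clusters differed: the one led by Dcn stood at 255 to 416 CPM and the one led by Prlr at 2345 to 3001. The genes most like Zbtb20 over classes were Zhx2 (r = 0.90), Igdcc3 (0.87) and Chd4 (0.84).

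Zbtb18, at chr1:177442351-177450764 (+), had a flatter profile over classes than Prox1 or Trps1. In Control, its mean was 207.3 ± 19.8 CPM (SD, n = 2) in immature dentate nuclei, 117.6 ± 0.122 in dentate granule, 101.5 ± 4.26 in CA2, 91.0 ± 1.07 in mossy, 84.0 ± 0.480 in CA1 and 78.9 ± 4.95 in CA3 nuclei. It was also present in glia, at 107.7 ± 17.2 in astrocytes and 86.8 ± 2.16 in oligodendrocyte precursors (OPC), while pooled inhibitory nuclei held 29.1 ± 2.26. No class among the 7 highest was apart from its neighbour in all 4 libraries. Free RNA held 79.8 to 98.2 CPM. The genes most like Zbtb18 over classes were Enc1 (r = 0.87), Zfp472 (0.85) and Bdnf (0.85).

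Bcl11b, at chr12:107910403-108003602 (-), split the hippocampal excitatory classes into a high and a low group. Subicular nuclei were highest, at 397.7, 342.0, 365.4 and 356.8 CPM, and apart from the next class in all libraries. Dentate granule nuclei held 303.0, 287.0, 291.3 and 273.3 and CA1 nuclei 278.9, 293.2, 281.4 and 284.3, which overlapped. CA2 held 135.0 to 164.1, CA3 28.1 to 36.8 and mossy cells 7.11 to 18.9. Lamp5 interneurons, at 198.6 to 259.4, were the highest inhibitory class. A UMI of Bcl11b was seen in 72.5% to 74.0% of thinned CA1 nuclei and in 11.95% to 15.4% of thinned CA3 nuclei (unthinned 96.1% to 97.6% and 34.4% to 47.5%, at median depths of 17393 and 24518). Dab1 (r = 0.89), Acvr1b (0.85) and Eftud2 (0.82) were most like it.

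Meis2, at chr2:115863064-116065839 (-), separated the CA fields from the dentate gyrus. CA1 nuclei held 170.3, 170.9, 190.6 and 144.9 CPM, against 3.90, 2.50, 2.60 and 3.25 in dentate granule nuclei. CA2 was at 78.2 to 111.7 and CA3 at 34.9 to 40.5, so the order CA1, CA2, CA3, dentate granule held in every library. OPC (148.8 to 186.1) and astrocytes (81.7 to 265.4) reached the level of CA1. Meis2 was seen in 45.6% to 53.0% of thinned CA1 nuclei and 1.26% to 1.37% of thinned dentate granule nuclei (unthinned 77.4% to 82.5% and 2.55% to 3.26%). It was uneven inside CA1 and CA3: the CA1 cluster led by Bmpr1b held 245.9 to 330.1 and the one led by B230110G15Rik 88.9 to 109.0, and the CA3 cluster led by Kcnq5 held 91.1 to 110.0 and the one led by Nectin3 11.6 to 21.6. An unnamed cluster led by Npsr1 was higher than any of these, at 551 to 684. Gpt2 (r = 0.81), Ifrd1 (0.78) and Rnf167 (0.77) were most like Meis2.

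Pou3f1, at chr4:124656807-124660655 (+), is the shortest of the 8 genes (3.8 kb) and was thinly counted, with few UMIs per library in the small classes. Subicular nuclei held 31.7, 37.7, 19.4 and 25.4 CPM, OPC 29.9, 33.9, 33.6 and 15.2, and CA1 19.5, 23.3, 15.4 and 18.5. These 3 classes overlapped, and CA1 was apart from the class below it. Dentate granule nuclei held 2.23 to 5.00 and CA3 nuclei 1.33 to 2.15, both under the 10.1 to 15.7 of free RNA. The gene most like it was Gm2164 (r = 0.88), which overlaps it on the other strand, then 1700057H15Rik (0.80) and Rab8b (0.78).

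Etv1, at chr12:38779380-38870484 (+), was a subicular gene in these data. Subicular nuclei held 481.3, 567.6, 515.7 and 518.4 CPM, OPC 217.8 to 231.3 and CA1 93.4 to 140.2, and these 3 steps had no overlap. The Control mean of subicular nuclei was 2.33 times that of OPC. In thinned nuclei, 79.4% to 84.6% of the subicular class and 9.16% to 13.9% of CA3 had a UMI (unthinned 99.0% to 100% and 27.5% to 37.3%). A pair of CA1 clusters stood above the CA1 mean, the Dcn-led one with 167.8 to 249.4 and the Bmpr1b-led one with 191.3 to 289.5, against 44 to 52 in the B230110G15Rik-led one. Crim1 (r = 0.83), Rasd1 (0.82) and Abhd12 (0.81) were most like Etv1.

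Trps1, at chr15:50654752-50890463 (-), marked mossy cells and CA3. Mossy cell nuclei, the excitatory neurons of the hilus, held 4395, 4602, 3856 and 4114 CPM. CA3 nuclei held 2093, 2150, 1860 and 1750. Mossy cells were above CA3 in every library, 2.12 times in the Control mean, and astrocytes (1831 to 2000) overlapped with CA3. CA1 was at 94.0 to 120.4, dentate granule nuclei at 37.8 to 46.1 and subicular nuclei at 5.89 to 16.5. A UMI was seen in 91.3% to 94.97% of thinned CA3 nuclei and 14.2% to 17.0% of thinned dentate granule nuclei (unthinned 98.1% to 98.8% and 24.0% to 28.7%). The CA3 class was not uniform: its Nectin3-led cluster held 2391 to 2918 CPM, and its Armc4-led and Kcnq5-led clusters 353 to 493 and 580 to 630. Both low-Trps1 clusters held more Meis2 than the Nectin3-led one in every library. E2f3 (r = 0.82), Kansl1l (0.80) and Ube2s (0.77) were most like Trps1. Among pairs of the 8 factors, Bcl11b and Trps1 had the lowest correlation over the 17 classes (r = -0.64), whose values come from the same 2 Control libraries.

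**Figure D1:**
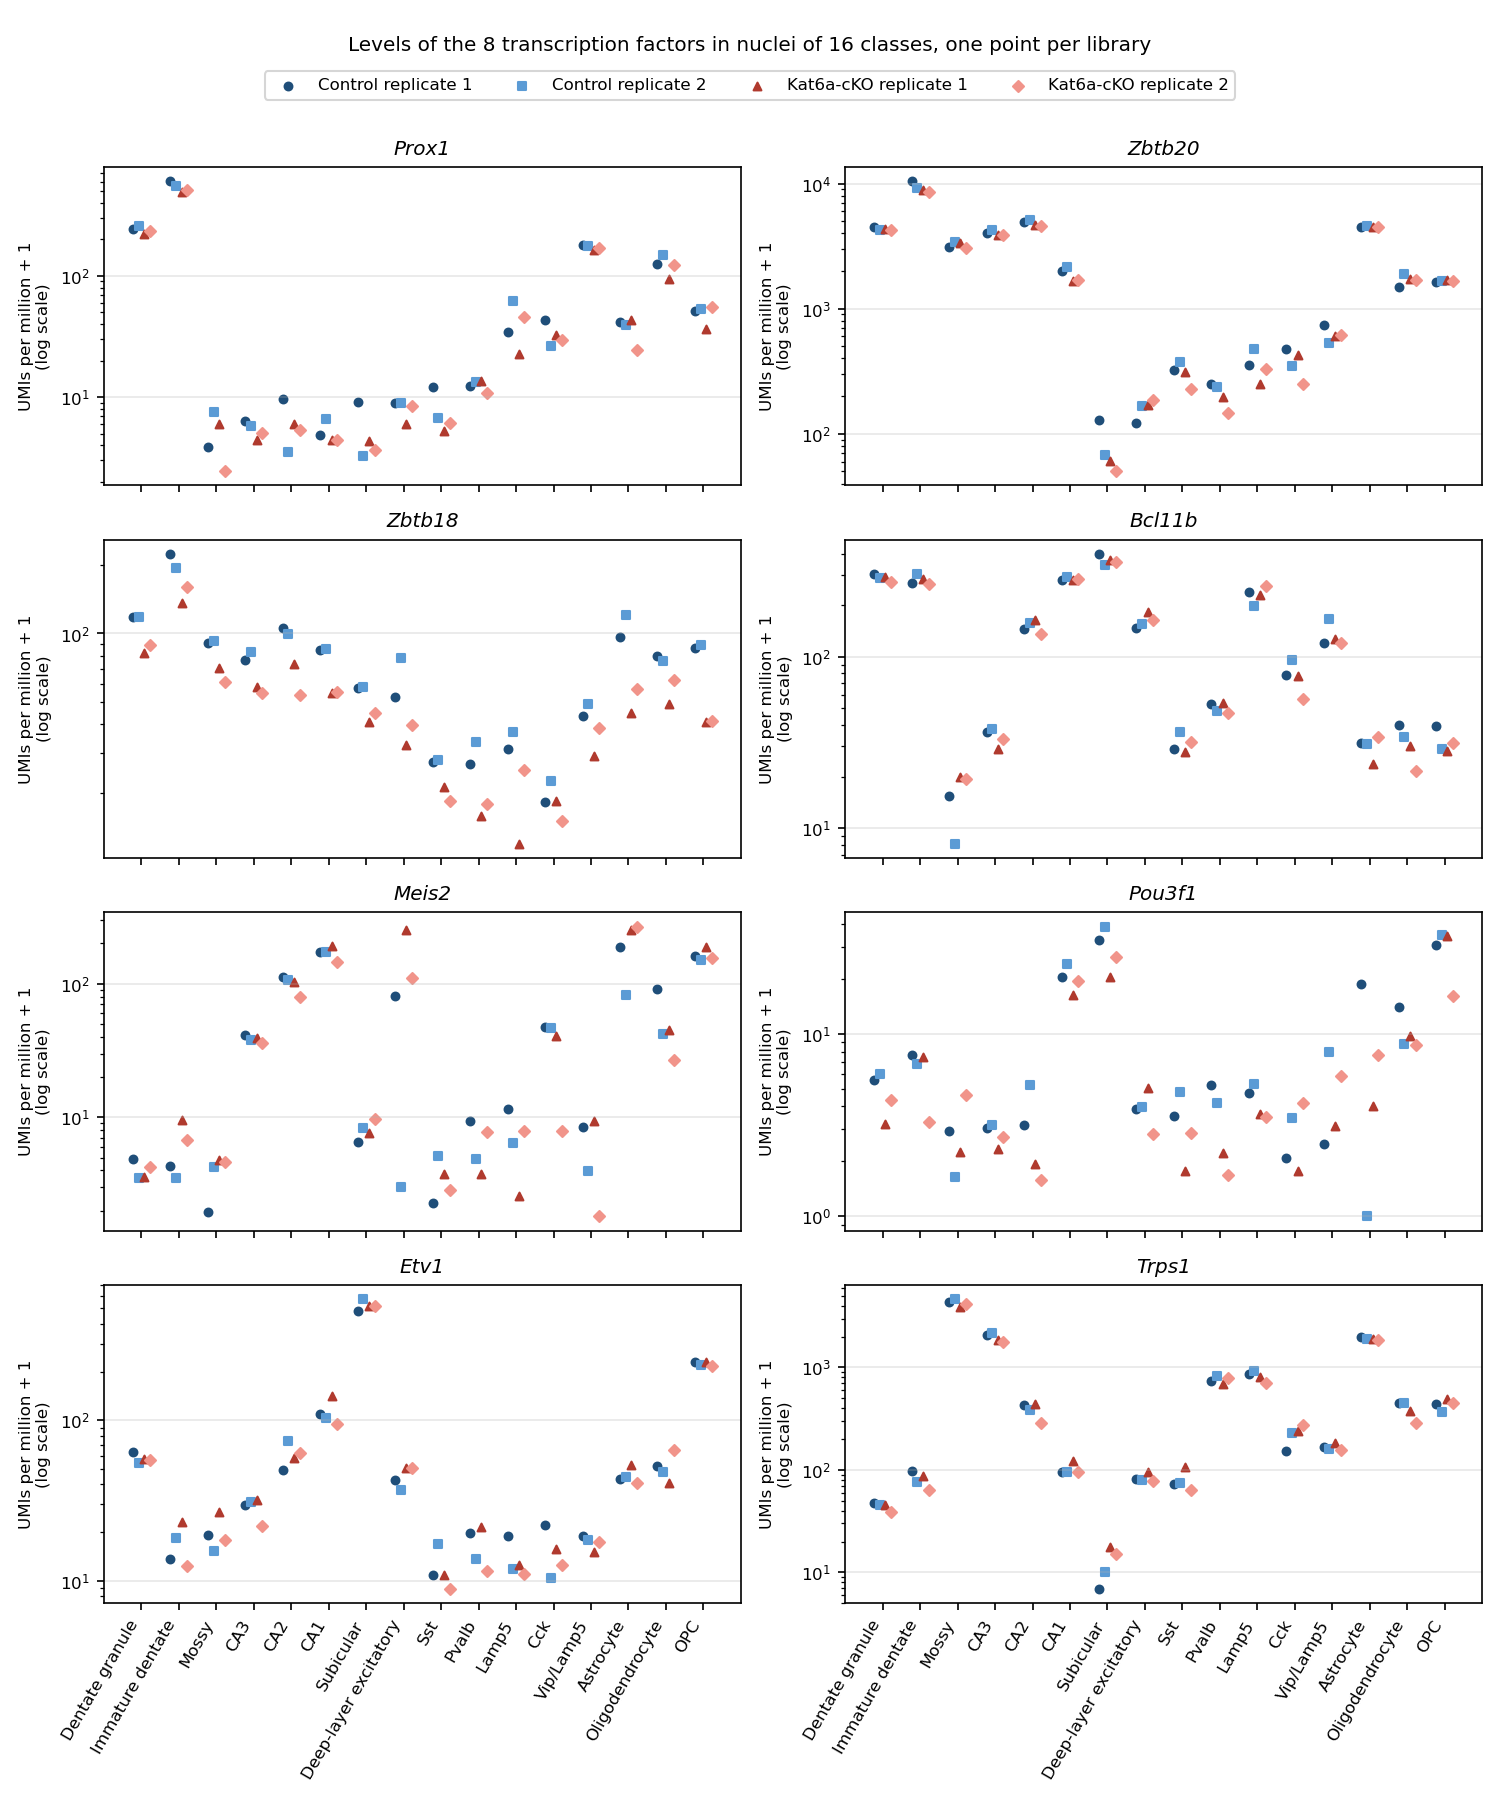
Level of the 8 factors, one panel each, in 16 classes of nuclei, one point per library, in CPM plus 1 on a log axis. Each factor has its own order of classes, with Prox1 highest in the 2 dentate classes, Trps1 in mossy cells and CA3, and Etv1 in subicular nuclei.

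**Figure D2:**
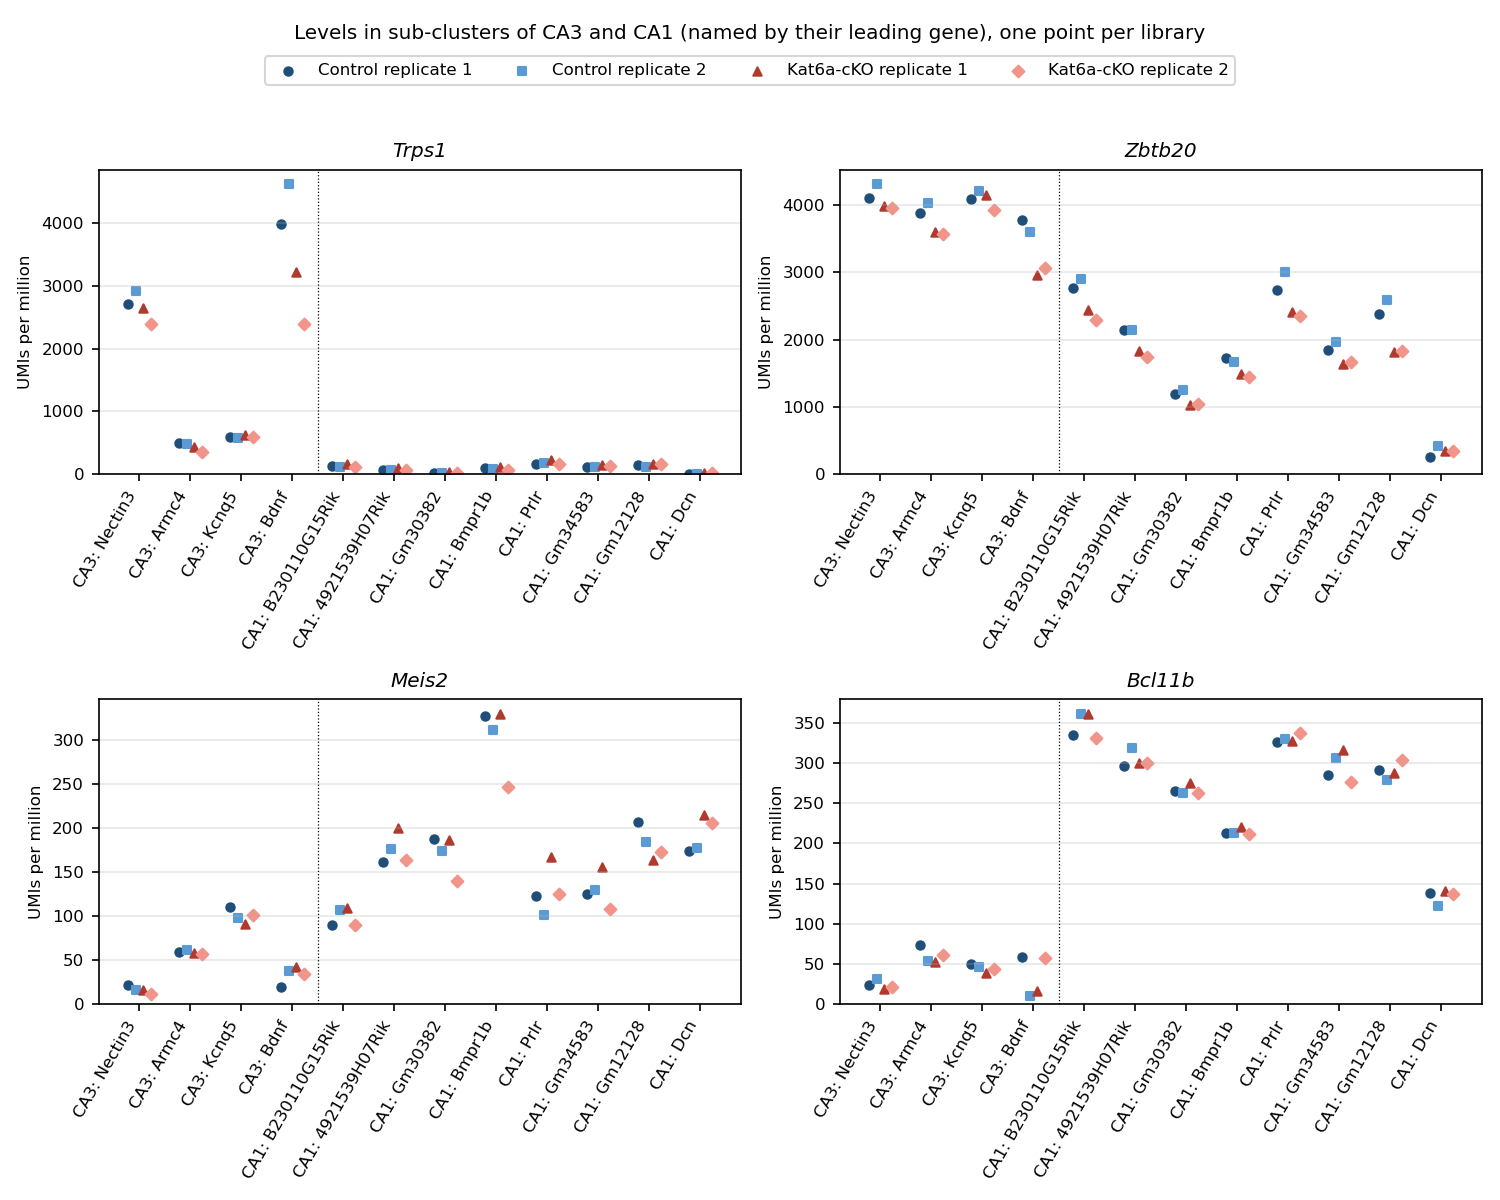
Levels of Trps1, Zbtb20, Meis2 and Bcl11b in finer clusters of CA3 and CA1, each named by its leading gene, one point per library, in CPM. The Nectin3-led CA3 cluster lies above 2390 for Trps1 in all 4 libraries and below 22 for Meis2.

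The comparison of Kat6a-cKO with Control asks which of these factors change with the genotype, and in which nuclei. Zbtb18 was lower in Kat6a-cKO and was the only one of the 8 called with all 4 libraries at the settings given. In dentate granule nuclei it fell from 117.6 and 117.5 CPM in the Control libraries to 80.9 and 88.2 in the Kat6a-cKO ones. The 2 groups did not overlap, and the log2 fold change was -0.46 ± 0.07 (SE). The adjusted p was 0.0255 by edgeR's quasi-likelihood test and Benjamini-Hochberg adjustment over all genes. Among all genes called in dentate granule nuclei, 67 were lower in Kat6a-cKO and 4 higher. In that class 71 of 17326 genes were called (0.41%), a number that went to 292, 211, 3 and 379 without Control 1, Control 2, Kat6a-cKO 1 and Kat6a-cKO 2. Without Kat6a-cKO replicate 1 the edgeR call was lost, at -0.42 and an adjusted p of 0.152. Every fit with a library left out has an arm of 1 library, which is assumed to vary like the other group, so such a fit that passes where all 4 libraries do not is no support for a difference. Among the summed marker levels of other cell types in these nuclei, the lists that separated the groups included the general excitatory one (1025 and 989 CPM in Control against 908 and 952), CA1 (172 and 183 against 163 and 170.1), CA2 (132 and 159.5 against 126 and 127.5) and those of oligodendrocytes (148 and 145 against 128 and 118), microglia (183 and 212 against 151 and 157) and OPC (923 and 935 against 1021 and 1020), while astrocyte markers overlapped (216 to 243 for 8 of 8). Their part in the result was not tested.

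The same direction was measured for Zbtb18 in every class tested. CA1 nuclei held 83.6 and 84.3 CPM in Control against 54.1 and 54.3, and CA3 nuclei 75.4 and 82.4 against 57.6 and 54.0. The edgeR log2 fold changes were -0.62 ± 0.07 (adjusted p = 0.0785) and -0.49 ± 0.08 (adjusted p = 0.115), so neither passed, and DESeq2 called both (6.59e-05 and 0.0137). In fits with an arm of 1 library, assumed to vary like the other group, edgeR called CA1 without Kat6a-cKO 1 (adjusted p = 0.00527) or 2 (0.00433), and CA3 without Control 1 (0.00715) or 2 (0.00513). In CA1 2 of 17092 genes were called (0.0117%) and in CA3 2 of 15505 (0.0129%). Immature dentate nuclei held 221.3 and 193.3 against 135.6 and 158.7, CA2 104.5 and 98.5 against 72.3 and 53.0, and mossy cells 90.3 and 91.8 against 69.4 and 60.6. None of these groups overlapped, and none of the 3 passed the edgeR test. The summed immature dentate markers in their own class and the dentate granule markers in CA3, both given below, were also lower in Kat6a-cKO without overlap. Their part in the Zbtb18 values was not tested.

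Values were lower as well in classes where NEX-cre is not known to be active, though none of them passed the test. OPC held 85.3 and 88.3 CPM in Control against 40.0 and 40.5, a log2 fold change of -1.07 ± 0.23 with an edgeR adjusted p of 0.092. Astrocytes, with 51 to 131 nuclei per library, held 95.5 and 119.8 against 44.1 and 56.4, and pooled inhibitory nuclei had a log2 fold change of -0.61 ± 0.12 (edgeR adjusted p = 0.116). In OPC, the summed CPM of the 9 dentate granule markers was 580, 548, 539 and 562 and that of the 7 OPC markers 6838 to 7604, both with overlapping groups. Over the 16 named classes tested, the log2 fold change was below 0 in 16 (-1.101 to -0.28, median -0.50), the groups did not overlap in 15, and the unadjusted p was under 0.05 in 13. The class with overlap was Cck interneurons, at 17.3 and 21.6 against 17.5 and 14.2. Of all 174780 gene-by-class fits, 19.0% had both Kat6a-cKO values under both Control values, and 7.45% had an unadjusted edgeR p under 0.05. Per class, 49.2% to 51.4% of all genes were below 0. The classes share their libraries, so they are not independent observations of the genotype. Zbtb18 in free RNA was 98.2 and 83.1 CPM in Control against 79.8 and 89.8, which overlap.

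**Figure D3:**
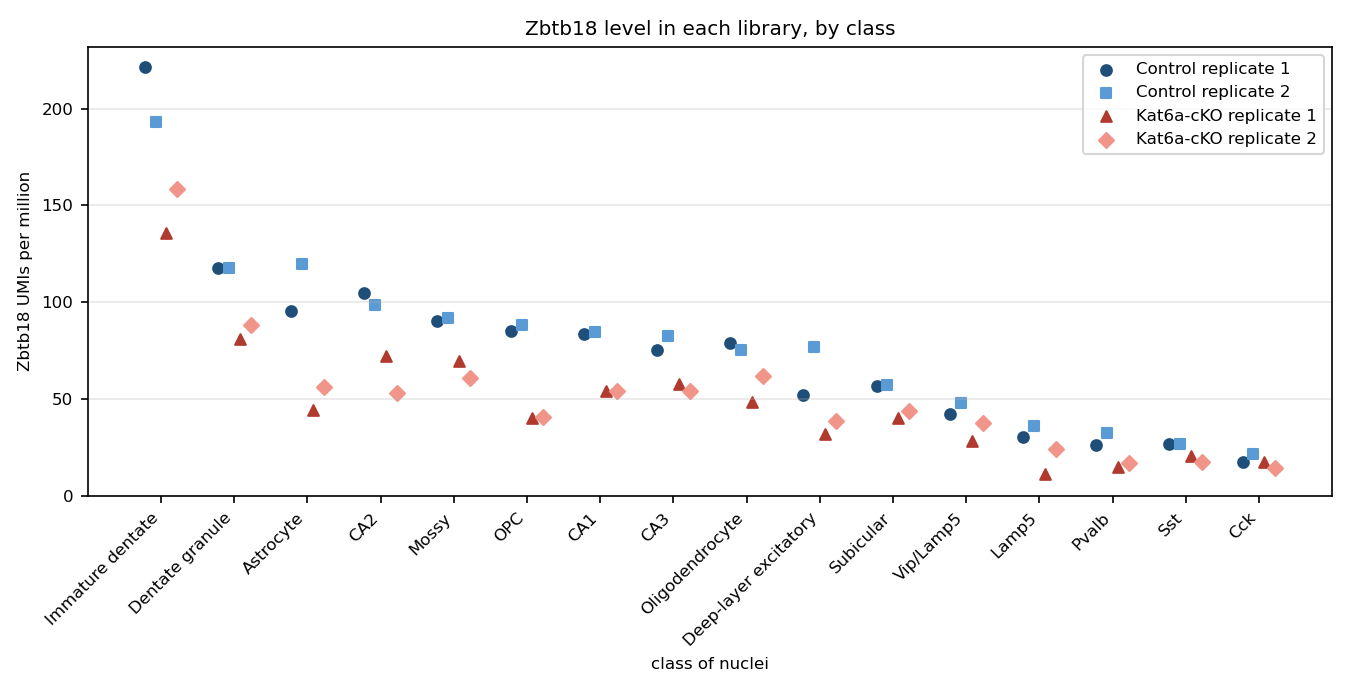
Zbtb18 in CPM in 16 classes of nuclei, one point per library, with classes ordered by level. The Kat6a-cKO points lie below both Control points in every class but Cck.

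Counted over nuclei, a UMI of Zbtb18 was seen in 42.7% and 42.7% of thinned dentate granule nuclei in Control, against 33.2% and 34.6% (unthinned 70.7%, 69.0%, 55.7% and 58.5%). In CA1 the thinned shares were 32.9% and 34.0% against 22.0% and 22.7%, and in OPC 31.3% and 33.9% against 15.5% and 22.6%. Cck interneurons, the class with the lowest Zbtb18 level, had thinned shares of 5.22% to 9.09%. All nuclei pooled, a comparison added with the class results in view, held 90.1 and 90.2 CPM in Control against 58.2 and 59.5. The share of dentate granule nuclei, which have much Zbtb18, moves the same way in that sum, as given above, and its part was not tested. The log2 fold change there was -0.60 ± 0.06 (edgeR adjusted p = 0.0373), where 14 of 21845 genes were called (0.0641%), and the call was lost without Kat6a-cKO replicate 1 (-0.58, edgeR adjusted p = 0.1) and with no filter on low counts (edgeR adjusted p = 0.296). Of the 14 genes called over all nuclei, 12 were lower in Kat6a-cKO and 2 higher. In clusters taken by number, also added later, Zbtb18 was below 0 in 31 of 31 and called in 4. Of these, 2 were dentate granule and 2 CA1 clusters, and the other 7 factors were called in 0. Over these clusters 642 of 328974 fits were called (0.195%).

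Of the genes around Zbtb18 on chromosome 1 that are reported here, 0 were called with it. Within 1000 kb these were 18 genes tested by edgeR over all nuclei, with log2 fold changes of -0.48 to 0.34. Over all nuclei only 14 of 21845 genes were called (0.0641%), so 0 of 18 does not show that the change is confined to Zbtb18. The 1 neighbour at an unadjusted edgeR p under 0.05 was Cox20, named after its value was seen. It was also lower in Kat6a-cKO, at -0.45 ± 0.13 (edgeR adjusted p = 0.3) and 2.10 to 3.12 CPM after TMM scaling. Of all genes, 2242 of 21845 had an unadjusted edgeR p under 0.05. The 7 neighbours with more than 10 CPM had log2 fold changes between -0.10 and 0.10. Gm26801, which overlaps the start of Zbtb18 on the other strand, had a log2 fold change of -0.16 ± 0.14.

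**Figure D4:**
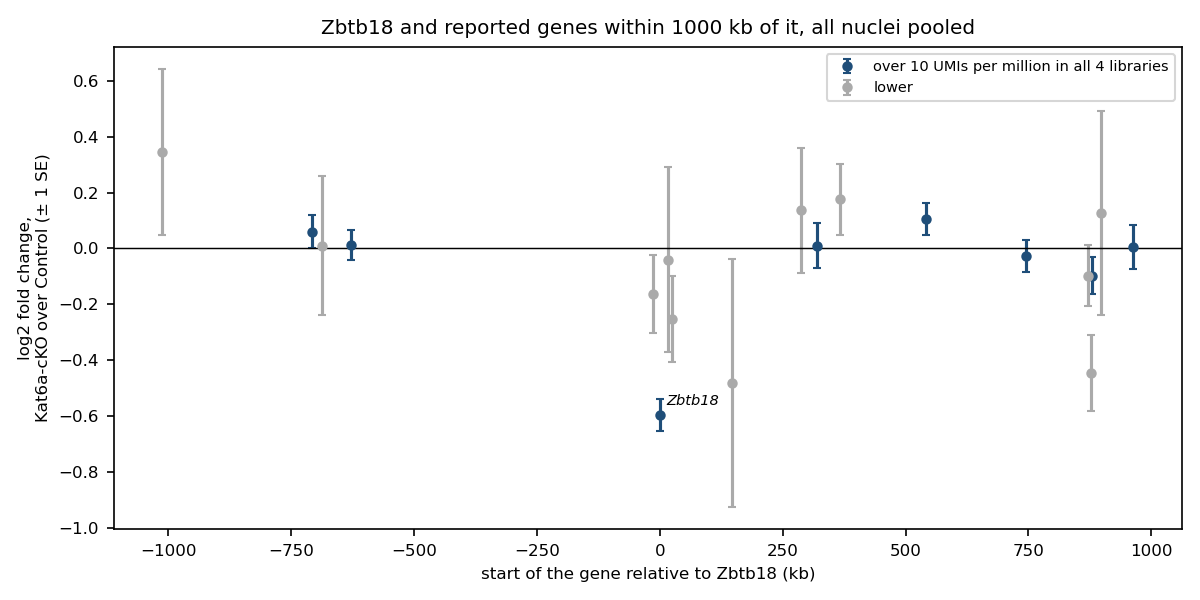
Log2 fold change, Kat6a-cKO over Control, of Zbtb18 and the reported genes around it over all nuclei, against the distance of their starts from that of Zbtb18 in kb, with bars of 1 SE; dark points are above 10 CPM. Zbtb18 lies at -0.60 and the neighbours above 10 CPM between -0.10 and 0.10.

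The other 7 factors gave 95 fits over the 16 classes and 0 calls by edgeR and 0 by DESeq2. Of these 95 fits 20 had an unadjusted edgeR p under 0.05, a larger share than the 7.45% of all gene-by-class fits (13017 of 174780). The factors were chosen with earlier results of these data known, and the classes share their libraries. In all, 111 of 128 combinations of factor and class passed the filter on low counts, with 1 called, against 361 of 174780 gene-by-class fits (0.207%). That count of 1 became 14 with no filter on low counts and 7, 10, 6 and 7 without Control 1, Control 2, Kat6a-cKO 1 and Kat6a-cKO 2, with other factors then among the calls. The share of all gene-by-class fits called was then 0.701% with no filter and 0.653%, 0.865%, 0.312% and 0.939% without each library in that order. DESeq2 and the replicate block also raised the count of calls, as given in the last section, with 0.277% and 0.916% of all gene-by-class fits called. The missing 17 combinations were mainly of Pou3f1, which was tested in 5 classes.

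Prox1, the dentate factor, had a log2 fold change in dentate granule nuclei of -0.12 ± 0.06 (edgeR adjusted p = 0.574). It was below 0 in 14 of 14 classes, with both Kat6a-cKO values under both Control values in 8. Of all gene-by-class fits, 19.0% had the same separation, and 49.2% to 51.4% of all genes per class were below 0. The classes share their libraries. In CA3 and CA1, where the Prox1 level is below that of free RNA, the values were -0.42 ± 0.20 and -0.46 ± 0.20. The coarser CA3 clusters differed: the Nectin3-led one was at 0.05 ± 0.27 (edgeR adjusted p = 0.982) and the Armc4-led one at -1.63 ± 0.33 (edgeR adjusted p = 0.134). The summed CPM of 9 dentate granule markers in CA3 was 70.9 and 75.04 in Control, against 64.2 and 51.0. Free RNA held Prox1 at 52.9 and 56.8 against 47.5 and 42.7, and the part of either was not tested. Over all nuclei Prox1 was -0.38 (edgeR adjusted p = 0.0884), where the share of dentate granule nuclei differed as given above. Fewer nuclei of a type and less RNA per nucleus cannot be told apart in that sum.

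Zbtb20 in CA1 stood at 2002 and 2146 against 1661 and 1703 CPM, without overlap, at -0.29 ± 0.07 (edgeR adjusted p = 0.359). In the CA1 cluster led by Prlr it was 2739 and 3001 against 2406 and 2345, and in the Dcn-led cluster 255 and 416 against 351 and 339, which overlap. Of the coarser clusters, the Dcn-led one was at -0.43 ± 0.08 (edgeR adjusted p = 0.0642) and the Gm12128-led one at -0.42 ± 0.09 (edgeR adjusted p = 0.383). The finer Dcn-led cluster, where Zbtb20 is low, made up 4.91% and 3.91% of CA1 nuclei in Control, against 9.44% and 5.69%, and its part in the CA1 value was not tested. In dentate granule nuclei it was -0.02 ± 0.07 and in CA3 -0.09 ± 0.07. Deep-layer excitatory nuclei went the other way without passing, at 120.8 and 164.9 against 170.2 and 184.2 CPM (0.36 ± 0.16, edgeR adjusted p = 0.484), also without overlap. In Pvalb nuclei Zbtb20 was 248.9 and 234.7 against 197.1 and 144.8 (-0.49 ± 0.12, edgeR adjusted p = 0.344), and in Lamp5 nuclei -0.48 ± 0.14 (edgeR adjusted p = 0.599). The largest difference was in subicular nuclei (-0.87 ± 0.23, edgeR adjusted p = 0.12), where Zbtb20 lay far below its 1548 to 1598 CPM in free RNA. The summed dentate granule markers there were 126 and 64.7 against 78.9 and 67.6. The part of either in the subicular Zbtb20 value was not tested. In fits of the subicular nuclei with an arm of 1 library, assumed to vary like the other group, it passed edgeR without Control 2 (-1.23), Kat6a-cKO 1 (-1.01) or Kat6a-cKO 2 (-0.72), and not without Control 1.

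Bcl11b did not pass in its high classes, with 278.9 and 293.2 against 281.4 and 284.3 CPM in CA1 and a log2 fold change of -0.02 ± 0.10 in subicular nuclei. In CA3 it was -0.25 ± 0.10 (edgeR adjusted p = 0.56). In mossy cells, where its level is lowest, it was 14.4 and 7.11 against 18.9 and 18.3 CPM (0.90 ± 0.38, edgeR adjusted p = 0.494). Pou3f1 was below 0 in all 5 classes where it could be tested, from -0.78 ± 0.20 in dentate granule nuclei (edgeR adjusted p = 0.156) to -0.25 ± 0.34 in OPC, with no overlap in 4. Over all gene-by-class fits, 19.0% had both Kat6a-cKO values under both Control values, and the classes share their libraries. Free RNA held Pou3f1 at 15.7 and 14.9 CPM in Control (27 and 22 UMIs) against 10.1 and 11.9 (14 and 19 UMIs). These few counts also separate, and the part of free RNA was not tested. In dentate granule nuclei it passed without Kat6a-cKO 2 (-1.08, edgeR adjusted p = 0.0121). Subicular nuclei, with the highest level, were at -0.59 ± 0.21 (edgeR adjusted p = 0.332).

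Etv1 was below 0 in 8 classes and above in 8, with 0.00 ± 0.09 in subicular nuclei and 0.16 ± 0.18 in CA1. In CA1 the single library Kat6a-cKO 1 was high, at 140.2 CPM against 93.4 to 108.9 in the others, and without it the value was -0.17, while without Kat6a-cKO 2 it was 0.43 (edgeR adjusted p = 0.0372). Meis2 in CA1 was also highest in that library, and Trps1 in CA1 too (120.4 against 94.0 to 94.7). A finer cluster led by Gm12128 was 13.4% of CA1 nuclei in Kat6a-cKO 1 and 5.89% to 7.08% in the others. The Dcn-led one, high in Etv1, was 9.44% in Kat6a-cKO 1 and 3.91% to 5.69% in the others. The Bmpr1b-led one, also high in Etv1, was 12.28% and 12.25% in Control against 11.7% and 8.58%. The log2 fold change of Meis2 was -0.0084 ± 0.13 in all CA1 nuclei and 0.022 without the coarser Gm12128-led cluster. The part of these clusters in the high values was not tested. Meis2 in deep-layer excitatory nuclei was 79.8 and 2.0 against 253.3 and 109.9, a log2 fold change of 2.07 ± 0.57 (edgeR adjusted p = 0.173), with Control 2 far under the other 3 libraries. The share of these nuclei with a Meis2 UMI was 18.1% and 2.63% against 37.7% and 16.7%, and 13.3% and 0 against 30.5% and 13.3% after thinning. Of the 76 nuclei of Control 2, the thinned share could be up to 4.74% (exact binomial, counting error only), and Control 1 and Kat6a-cKO 2 overlap. Meis2 was 0.85 ± 0.28 in astrocytes (edgeR adjusted p = 0.856) and -0.89 ± 0.38 in oligodendrocytes (edgeR adjusted p = 0.75), so its direction differed between classes without passing in any class with all 4 libraries. In fits of the deep-layer excitatory nuclei with an arm of 1 library, assumed to vary like the other group, Meis2 passed at 1.23 without Control 2, 1.29 without Kat6a-cKO 1 and 2.55 without Kat6a-cKO 2. Without Control 1 it also passed, but that Control arm held 2 UMIs, so no fold is given.

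Trps1 in CA3 stood at 2093 and 2150 against 1860 and 1750 CPM, without overlap, at -0.22 ± 0.07 (edgeR adjusted p = 0.449), and passed without Control 2 (-0.24, edgeR adjusted p = 0.0355). The Nectin3-led cluster, where Trps1 is high, made up 68.1% and 63.9% of CA3 nuclei in Control, against 58.8% and 63.0%. Within it Trps1 was 2717 and 2918 against 2652 and 2391. In mossy cells Trps1 was -0.14 ± 0.08 and in CA1 0.21 ± 0.12. In subicular nuclei, where its level is lowest, it was higher in Kat6a-cKO, at 5.89 and 9.0 against 16.5 and 14.1 CPM without overlap (1.09 ± 0.32, edgeR adjusted p = 0.171). These values rest on 16 and 16 UMIs in Control against 40 and 42. Free RNA held Trps1 at 326 to 359 CPM, far above the subicular level, and its part was not tested.

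**Figure D5:**
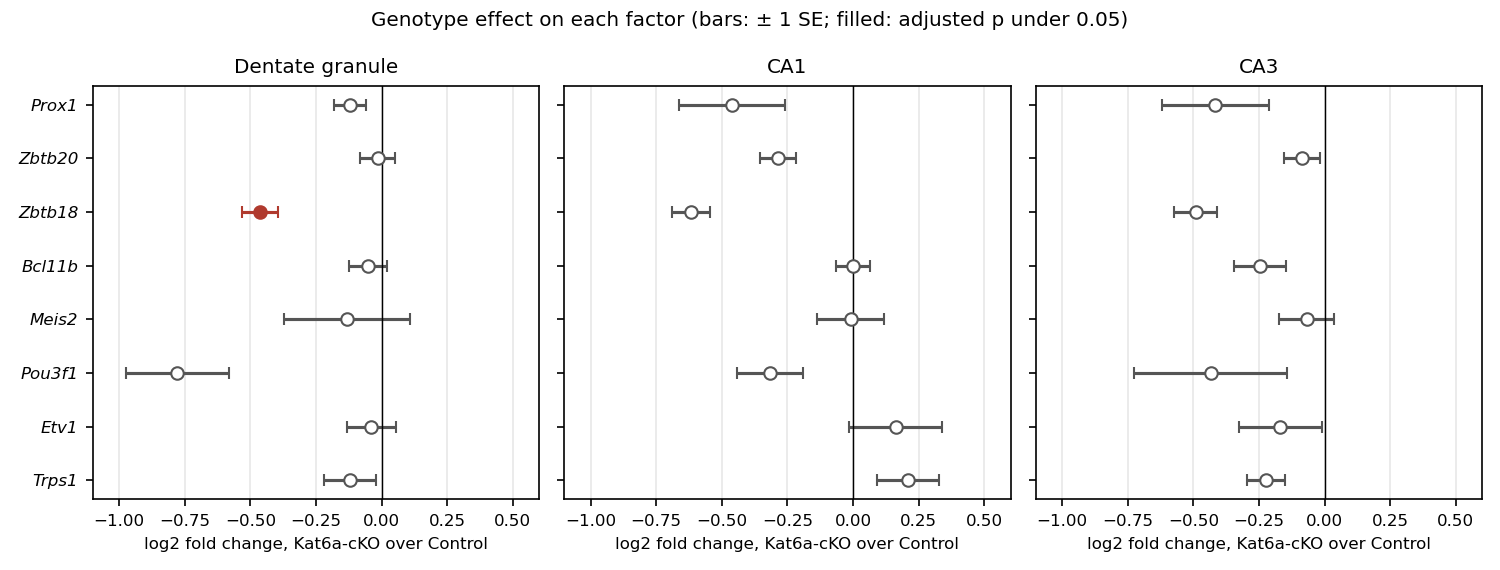
Log2 fold change, Kat6a-cKO over Control, of the 8 factors in dentate granule, CA1 and CA3 nuclei, with 1 SE to each side. The filled point, Zbtb18 in dentate granule nuclei at -0.46, is the only one past the threshold.

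Whether the genotype effect differed between classes was tested for the pairs among CA1, CA3 and dentate granule nuclei, with the library as a block. None of the 8 factors passed by edgeR, and 4 of their tests did with no filter on low counts, 2 of Trps1 and 2 of Zbtb20. With no filter 0.588% of all genes passed for CA1 and CA3, 0.898% for CA1 and dentate granule and 0.295% for CA3 and dentate granule. Zbtb18 differed between CA1 and CA3 by -0.13 (edgeR adjusted p = 0.951), so its change was not shown to differ. The lowest adjusted p was for Trps1, whose log2 fold change was 0.41 ± 0.08 higher in CA1 than in CA3 (edgeR adjusted p = 0.129). In CA1 it stood at 94.0 and 94.1 CPM in Control against 120.4 and 94.7, with only Kat6a-cKO 1 high. These levels lie below its 326 to 359 CPM in free RNA, and the part of either was not tested. Over all genes 6 of 17290 interactions passed for CA1 and CA3 (0.0347%), 6 of 18150 for CA1 and dentate granule (0.0331%) and 13 of 17596 for CA3 and dentate granule (0.0739%). All pairs use the same 4 libraries.

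Of the wider list of 87 neuronal transcription factors, 77 were tested in CA1, 73 in CA3 and 79 in dentate granule nuclei. Mkx, a homeobox factor of the TALE class, rose in CA1, from 7.003 and 5.63 to 22.6 and 28.8 CPM after TMM scaling, a log2 fold change of 2.03 ± 0.17 (edgeR adjusted p = 0.0347). This call was lost without Control 1 (2.19, edgeR adjusted p = 0.0922), with doublets kept (1.26, edgeR adjusted p = 0.0515) and with the replicate block (2.02, edgeR adjusted p = 0.104). Mkx was the only one called in CA1, and 0 were called in CA3 or dentate granule nuclei. At an unadjusted edgeR p under 0.05 were 13, 14 and 9 of the list in CA1, CA3 and dentate granule nuclei. Among all genes tested, these numbers were 1349 of 17092, 1215 of 15505 and 1736 of 17326. Median log2 fold changes of the list were 0.07, 0.01 and -0.0032 in CA1, CA3 and dentate granule nuclei, against -0.15, -0.24 and -0.12 for the 8 factors. Over all genes tested they were -0.00079, -0.0055 and 0.0033. In the other classes tested, 2 calls of listed genes were lower and 1 higher, and 0.207% of all gene-by-class fits were called. The 2 that were lower are named after their values were seen. Sox11, a factor of young neurons, fell in immature dentate nuclei (376 and 321 to 271 and 185 CPM after TMM scaling, log2 fold change -0.59 ± 0.14, edgeR adjusted p = 0.0326). That call was lost with DESeq2 (adjusted p = 0.124), at 10000 UMIs, at the finer clustering, and without Control 1 (-0.47) or Kat6a-cKO 2 (-0.36). The 6 immature dentate markers of that class, summed, were 438 and 420 CPM in Control against 355 and 350, and their part was not tested. In that class 58 of 9596 genes were called (0.604%). Tshz2, a zinc finger factor, fell in subicular nuclei (1448 and 1340 to 961 and 941 CPM, -0.55 ± 0.07, edgeR adjusted p = 0.00121), where 98 of 10488 genes were called (0.934%). The summed subicular markers there were 310 and 316 against 282 and 271, and their part was not tested. In dentate granule nuclei Mkx stood at 365 and 304 against 314 and 328.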

How the data were processed

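Hippocampal nuclei of 2 Control and 2 Kat6a-cKO libraries were measured. The authors deposited raw UMI counts per barcode and gene, whole numbers for all observed barcodes. Per the submitters' processing notes, mm10 and Seurat 4.0.1 were used; the aligner, counter, annotation and strand are not given in the sources used here. Gene positions come from GENCODE M21 (GRCm38), whose IDs matched all 8 genes by version.

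Barcodes of at least 5000 UMIs were kept, doublets were called by Scrublet in scanpy 1.11.5 (expected rate 0.06) and left out, and nuclei were clustered by Leiden (leidenalg 0.10.2, resolution 1; finer clusters at 2; 30 components of 2000 variable genes, 15 neighbours), with the 8 factors, the wider list, mitochondrial genes and Kat6a, Rspo2, Neurod6, Gm3279 and the Cre entry left out (137 genes). A cluster took the class with at least 40% and 3 of its markers raised 2-fold with 5 CPM added, in at least 20 nuclei. These naming thresholds were chosen with the data in view. Counts were summed per library and class, for classes with at least 30 nuclei in each library (not Cajal-Retzius nuclei), and compared by edgeR 4.0.16 (TMM, filterByExpr, quasi-likelihood, R 4.3.3), with Benjamini-Hochberg adjustment over all genes and a threshold of 0.05. The procedure was tested on simulated data. Shares were thinned to 5000 UMIs, and intervals cover counting error only.

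All 8 factors are named, with the 3 genes most like each (at least 10 CPM in 1 class) and any gene of the wider list called in CA1, CA3 or dentate granule nuclei; finer clusters, neighbouring genes and marker sums were chosen after their values were seen. The members and lists were chosen with earlier results of these data known. With 2 libraries a group an exact permutation test cannot give a p under 0.333, so none was used. Alternatives were DESeq2 1.42.0, no filter on low counts, 10000 UMIs, doublets kept, Leiden resolution 2, TMM-scaled levels, free RNA subtracted, a replicate block and each library left out; CA1 without its Gm12128-led cluster, clusters by number and all nuclei pooled were added after seeing the data. Some items are not reported here.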

Additional observations from a re-analysis of the deposited data

How the results depend on the processing

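The 1 call among the fits of factor and class became 3 with DESeq2, all of Zbtb18, 14 with no filter on low counts, 11 with the replicate block and 6 to 10 when 1 library was left out, which leaves an arm of 1 library assumed to vary like the other group. Of all gene-by-class fits 0.207% were called, then 0.277%, 0.701%, 0.916% and 0.312% to 0.939% in that order. Called genes in dentate granule nuclei numbered 71, then 204 with DESeq2, 535 with no filter, 289 with the replicate block and 3 to 379 with 1 library left out. In CA1 the 2 became 101, 549, 1 and 2 to 383 in that order, and 4 without the Gm12128-led cluster. In CA3 the 2 became 29, 298, 217 and 4 to 310, and 4 at 10000 UMIs. The 0 interactions became 4 with no filter, among them Trps1 between CA1 and CA3 (edgeR adjusted p = 2.5e-09). Of the Kat6a-cKO libraries, only Kat6a-cKO 1 held a high Trps1 level in CA1, as given above. The replicate numbers are not shown to pair libraries by the labels. Deviations of log2 CPM from the group mean correlated between same-numbered libraries at 0.25 (CA1), 0.20 (CA3) and 0.26 (dentate granule). These are not correlations of the levels themselves. With only 2 pairs, crossed libraries give the negative of each value by construction (-0.25, -0.20 and -0.26). Whether libraries are paired was not tested. Zbtb18 over all nuclei lost its call with no filter (-0.60, adjusted p = 0.296). In immature dentate nuclei the Control mean of Prox1 was 572.2 CPM, 478.2 at 10000 UMIs and 681.2 at Leiden resolution 2; Zbtb20 was 9792, 6638 and 12300 and Zbtb18 207.3, 175.7 and 233.5. Meis2 in CA1 was 170.6, 169.1 at resolution 2, 169.9 with TMM and 168.5 with free RNA subtracted. Signs changed only for log2 fold changes that had not passed. With 1 library left out, these ran in dentate granule nuclei from -0.073 to 0.036 for Zbtb20, -0.12 to 0.0069 for Bcl11b, -0.43 to 0.25 for Meis2 and -0.17 to 0.094 for Etv1, in CA1 from -0.0062 to 0.0024 for Bcl11b, -0.23 to 0.18 for Meis2 and -0.17 to 0.43 for Etv1, and in CA3 from -0.17 to 0.043 for Meis2 and -0.48 to 0.11 for Etv1. Other sign changes were Etv1 in dentate granule nuclei at 10000 UMIs (0.0061), Bcl11b in CA1 with DESeq2 (0.0058) and at resolution 2 (0.0012), and Meis2 in CA1 without the Gm12128-led cluster (0.022). Causes were not tested. Of the values for single genes, 267 kept direction and side of the threshold, 28 passed it newly, 11 no longer passed and 18 changed sign. Some classes had no fit at 10000 UMIs or resolution 2.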
